A study of Mus musculus with 8 samples.

Results

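The regions open only in P0.5 fibers are stretches of the mouse genome at which accessible chromatin was detected in newborn lens fibers and in none of the other lens compartments or stages profiled. They were chosen by measured values: the peak lists of the 4 groups were merged over chromosomes 1 to 19 and X, joining peaks no more than 10 bp apart, and a merged region was kept if it held a P0.5 fiber peak and no peak of the other lists. This gave 23423 of 185247 merged regions (12.6%), each with exactly 1 P0.5 fiber peak. They are called P0.5 fiber-only regions here. Since the calls themselves chose them, their absence from the other lists is not a finding, and a region just under a caller's threshold elsewhere counts as absent.

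ATAC-seq, in which a transposase inserts sequencing adapters into accessible DNA, was run on lenses of CD1 mice separated by micro-dissection into epithelium and fibers. There were 4 groups, E14.5 epithelium, E14.5 fiber, P0.5 epithelium and P0.5 fiber, each with 2 libraries and with no mutant allele or treatment named in the labels, and several lenses were pooled in each sample. The deposited lists, 1 for each group, are named as pooled, so there is no value per library, no spread between replicates, and no read counts were used, and the intervals below cover counting error only. The P0.5 fiber list held 62995 peaks, against 58592 for the P0.5 epithelium, 123743 for the E14.5 fibers and 100003 for the E14.5 epithelium, and it was the weakest: 48.9% of its peaks had a false discovery rate (q) under 0.001, against 80.5% to 87.9% in the others.

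The lens grows by the differentiation of epithelial cells at its equator into elongated fibers. Fibers leave the cell cycle, fill with crystallins, build gap junctions and a beaded-filament cytoskeleton, and in the lens core degrade their nuclei and other organelles to become transparent. Open chromatin usually marks promoters, enhancers and insulator sites, where transcription factors keep nucleosomes off the DNA. The tissue label was checked against promoters with a peak within 2 kb of a start site. The P0.5 fiber list had one at 15 of 16 crystallin genes, 23 of 24 genes of the fiber membrane and cytoskeleton and 21 of 21 fiber transcription factors, but also at 17 of 17 lens epithelium markers, 5 of 11 endothelial and pericyte markers, 7 of 12 retinal and neural markers and 2 of 12 blood and macrophage markers. Among all 20923 protein-coding genes the share was 65.01%, so an open promoter by itself does not separate fibers from epithelium.

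Sequences of 6 regions are shown, each a window of 200 bases centred on the peak summit, read on the plus strand of GRCm38 (mm10). The first group holds the 3 of the 13 strongest P0.5 fiber-only regions whose summit lay in a coding exon, with coding bases in capitals, and stands for the coding-exon summits described below. Cntnap1 encodes a protein of the junction between axon and myelinating glia, Hhatl a membrane protein related to an acyltransferase of Hedgehog ligands, and Rbp3 the retinoid-binding protein of the photoreceptor matrix.
Cntnap1, chr11:101186701-101186900: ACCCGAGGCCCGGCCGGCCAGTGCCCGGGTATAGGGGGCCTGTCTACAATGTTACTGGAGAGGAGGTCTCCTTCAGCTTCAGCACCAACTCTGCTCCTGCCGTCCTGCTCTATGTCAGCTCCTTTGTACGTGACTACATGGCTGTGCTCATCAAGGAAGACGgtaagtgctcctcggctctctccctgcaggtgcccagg
Hhatl, chr9:121785052-121785251: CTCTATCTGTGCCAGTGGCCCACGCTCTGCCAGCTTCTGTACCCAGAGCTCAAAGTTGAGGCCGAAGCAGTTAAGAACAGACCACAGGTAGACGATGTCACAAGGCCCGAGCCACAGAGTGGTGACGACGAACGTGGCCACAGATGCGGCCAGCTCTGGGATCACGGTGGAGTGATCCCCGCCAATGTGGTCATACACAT
Rbp3, chr14:33954666-33954865: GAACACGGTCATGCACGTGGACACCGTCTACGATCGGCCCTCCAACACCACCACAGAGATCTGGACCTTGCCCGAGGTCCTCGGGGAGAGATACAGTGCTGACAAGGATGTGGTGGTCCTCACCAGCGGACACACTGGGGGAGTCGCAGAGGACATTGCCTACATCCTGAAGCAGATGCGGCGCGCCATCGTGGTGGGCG
The second group holds both regions at the promoter of Crybb2, the only one of 16 crystallin genes with such a region there, and the second strongest region of all. They are shown as the crystallin promoter members and as the strongest distal one. Capitals mark the nuclear receptor core AGGTCA in the Crybb2 intron and the distal window and the Sox core ACAATGG upstream of Crybb2, on either strand.
Crybb2 intron, chr5:113068357-113068556: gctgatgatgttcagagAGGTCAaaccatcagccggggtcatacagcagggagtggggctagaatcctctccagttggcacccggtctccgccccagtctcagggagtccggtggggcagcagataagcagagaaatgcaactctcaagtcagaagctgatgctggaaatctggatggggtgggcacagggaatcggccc
Crybb2 upstream, chr5:113070152-113070351: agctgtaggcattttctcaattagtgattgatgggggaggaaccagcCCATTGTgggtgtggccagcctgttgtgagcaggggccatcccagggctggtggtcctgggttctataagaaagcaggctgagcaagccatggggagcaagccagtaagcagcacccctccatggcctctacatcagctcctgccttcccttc
Distal to 1700124M09Rik, chr10:19114031-19114230: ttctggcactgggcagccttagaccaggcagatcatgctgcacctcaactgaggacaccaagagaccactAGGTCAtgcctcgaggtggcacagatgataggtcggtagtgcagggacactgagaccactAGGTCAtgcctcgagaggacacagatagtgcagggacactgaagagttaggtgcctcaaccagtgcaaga
The Hhatl and Rbp3 windows were coding over all 200 bases and the Cntnap1 window over 162, its remainder being intron. AGGTCA stood at 2 places in the last window, within 2 copies of a longer repeated stretch, and at 1 place in the Crybb2 intron. ACAATGG was less frequent in members, at 2.58%, than in regions with a peak in E14.5 fiber only, at 3.82% (difference −1.24 points, 95% interval −1.50 to −0.98), or in P0.5 epithelium only, at 3.17% (−0.60, −1.03 to −0.19). With GC content weighted the first difference was −0.70 and the second included 0, at −0.28 (−0.69 to 0.13).

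P0.5 fiber-only regions were weak. Their median width was 146 bp, with the middle 80% from 109 to 254 bp and a range from 103 to 1010 bp, against medians of 211 bp in E14.5 fiber only, 122.5 bp in P0.5 epithelium only, 147 bp in E14.5 epithelium only and 836 bp in shared regions. Fold enrichment over background at the summit had a median of 3.71, against 3.86 for regions with a peak in E14.5 fiber only, 4.25 for P0.5 epithelium only and 5.10 for P0.5 fiber regions shared with another list. Only 5474 (23.4%) had q under 0.001, against 65.6%, 59.3% and 67.3% in those groups. These values belong to the calls that chose the regions and are given as a description. In bulk tissue and from pooled lists, opening in a few cells, weak opening in many and a false call cannot be told apart.

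**Figure D1:**
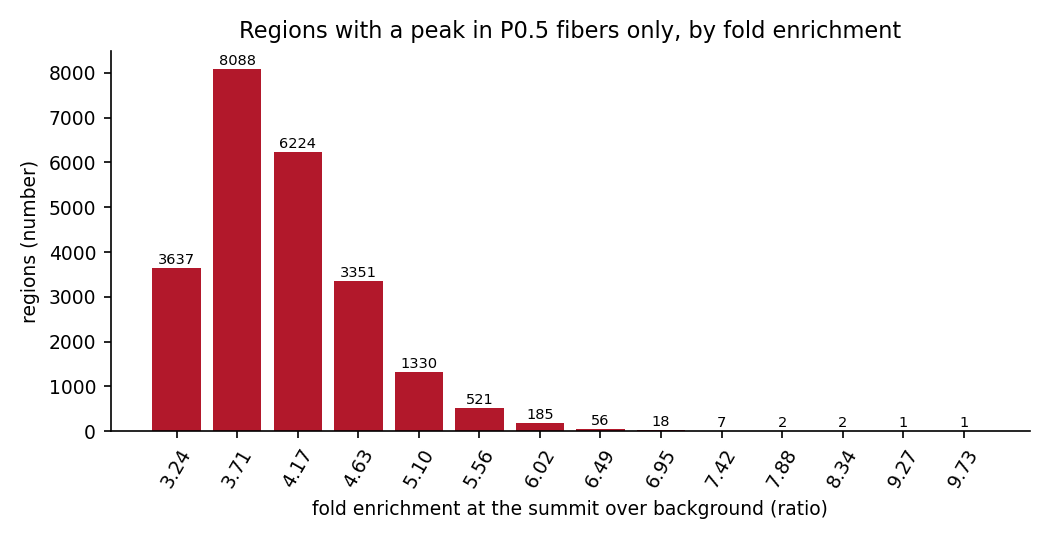
Number of P0.5 fiber-only regions (vertical axis) at each of the 14 fold enrichments over background that occur (horizontal axis, ratio). The regions fall on a ladder of values, with 8088 of 23423 at 3.71 and a single one at the highest value, 9.73.

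The fold enrichments took only 14 distinct values, all whole multiples of 0.463 to within 0.01 of a step. The lowest rung, 3.24, lay at 7 steps and held 3637 regions with a −log10 q of 1.33, just inside the authors' cutoff of 0.05. The 3 lowest rungs together held 17949 regions (76.6%), and members of the same rung cannot be ranked against one another. At the other threshold, 215 members had a peak of another list 11 to 20 bp away, and 275 P0.5 fiber peaks that overlapped no other peak had one within 10 bp and were not members. Both sets had the same median −log10 q, 2.76. The nearest peak of any other list lay at a median of 1.79 kb from a member, and within 1 kb for 8622 members (36.8%). By list, the medians were 2.70 kb for E14.5 fiber, 3.55 kb for E14.5 epithelium and 5.84 kb for P0.5 epithelium.

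P0.5 fiber-only summits lay in coding exons more often than the summits of regions particular to the E14.5 fiber or the P0.5 epithelium list. The summit lay in a coding exon for 2955 of 23423 (12.6%), against 4.32% of E14.5 fiber-only and 6.68% of P0.5 epithelium-only regions, whereas coding exons make up 1.33% of these chromosomes. The difference was 8.30 percentage points from E14.5 fiber only (95% Newcombe interval 7.84 to 8.76) and 5.94 points from P0.5 epithelium only (5.25 to 6.61), with the same sign on all 20 chromosomes in both comparisons. P0.5 fiber regions shared with another list had a like share, 12.3%, with a difference of 0.35 points (−0.21 to 0.91). No difference beyond counting error was thus found within the P0.5 fiber list as it stood, while weighting the shared regions to the same GC content gave a difference of 5.31 points. Exons that are not coding held 3.83% of summits, against 3.34%, 3.38% and 14.2%.

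**Figure D2:**
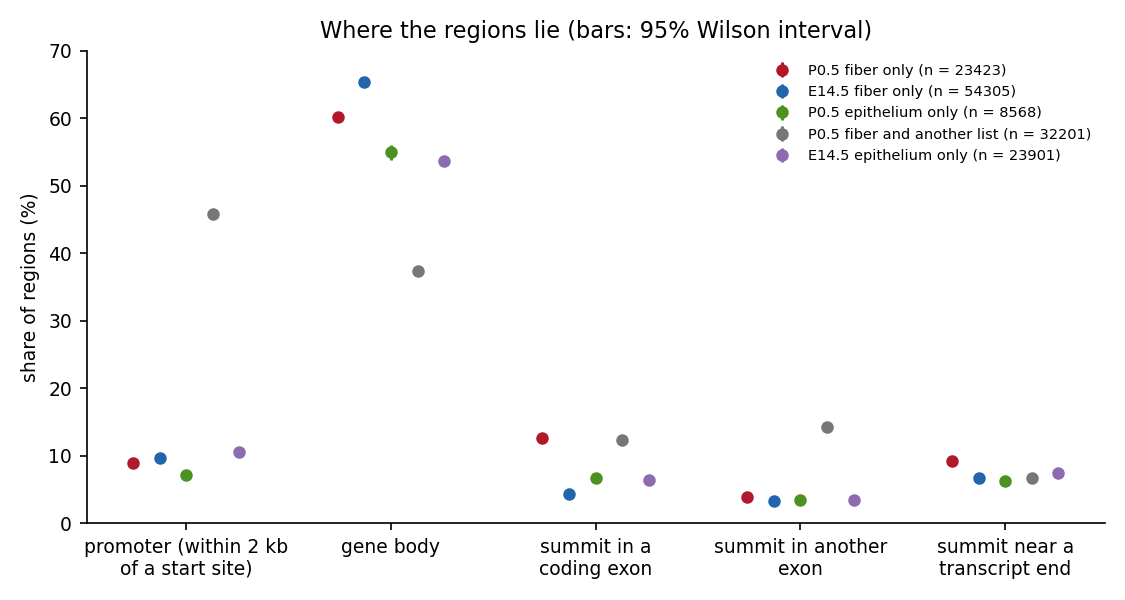
Share of regions (vertical axis, %) overlapping a promoter or a gene body and share with the summit in a coding exon, in another exon or within 2 kb of a transcript end, for each group of regions; points are shares and bars are 95% Wilson intervals, most of them smaller than the point. P0.5 fiber-only regions sit at 12.6% for coding exons, above the other single-list groups at 4.32% to 6.68%.

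The share rose with the strength of the peak. Among P0.5 fiber-only regions with −log10 q under 2 it was 10.3%, from 2 to 3 it was 12.5%, from 3 to 4.5 it was 16.8%, from 4.5 to 6 it was 19%, and at 6 and above it was 28.7% (78 of 272 regions, 95% Wilson interval 23.6 to 34.3). In the other single-list groups it fell over the same range, from 5.68% to 2.88% in E14.5 fiber only, from 7.72% to 2.67% in P0.5 epithelium only and from 8.13% to 2.34% in E14.5 epithelium only. The shared P0.5 fiber regions rose from 11.2% to 17.8% below a −log10 q of 6 and stood at 9.59% above it. The contrast with E14.5 fiber only was thus widest among the strongest calls. The share of windows with at least 50% GC also rose in members, from 79.9% to 94.9%. Between the lowest and highest bins it went from 59.2% to 51.9% in E14.5 fiber only and from 74.7% to 57.3% in P0.5 epithelium only. In E14.5 epithelium only it went from 69.6% to 50.3%, and in shared regions from 88.1% to 98.1%. The part of GC content in these trends with strength was not tested.

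**Figure D3:**
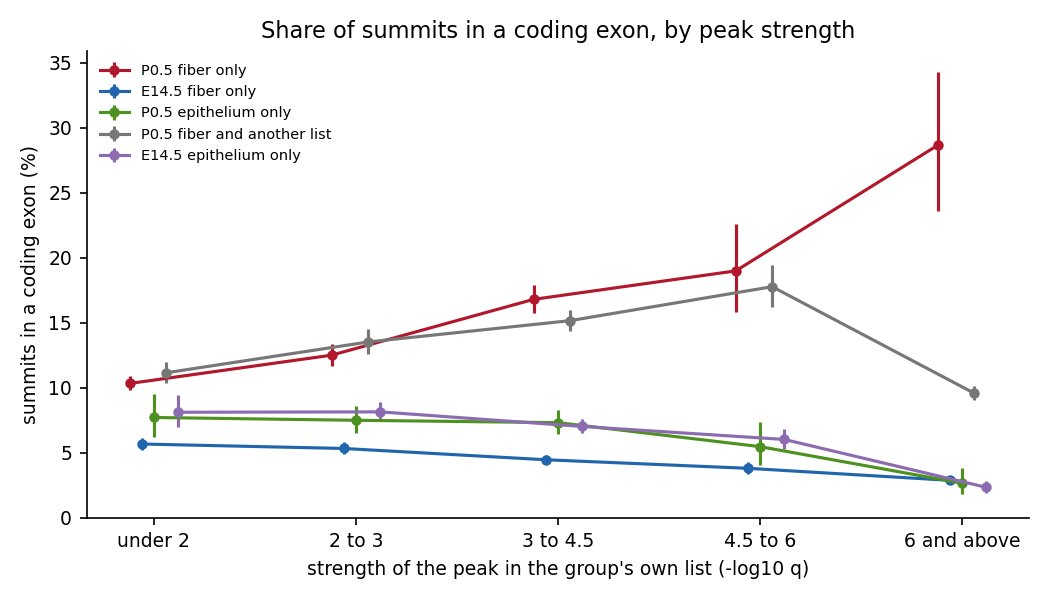
Share of summits in a coding exon (vertical axis, %) by the −log10 q of the peak in the group's own list (horizontal axis), for 5 groups of regions; bars are 95% Wilson intervals. The P0.5 fiber-only line climbs from 10.3% to 28.7% while the other single-list groups decline to between 2.34% and 2.88%.

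The coding share of members was higher in bins of higher GC content, and in the bins from 50% GC upward it was above E14.5 fiber only, P0.5 epithelium only and shared regions, with intervals that did not overlap. For windows of 45% to 50% GC it was 1.99% (1.57 to 2.53) in members and 1.71% (1.52 to 1.92) in E14.5 fiber only, with overlapping intervals, while P0.5 epithelium only had 0.75% (0.44 to 1.28). For windows of 55% to 60% GC, 16.1% of P0.5 fiber-only summits were coding, against 8.54% in E14.5 fiber only, 10.5% in P0.5 epithelium only and 10.4% in shared regions. For windows of 60% to 65% GC the values were 38.9%, 24.1%, 26.7% and 20.03%, and at 65% GC and above 54.8%, 32.3%, 32.6% and 16.4%. With the comparison groups weighted to the members' GC content, the difference was 5.35 points from E14.5 fiber only (4.83 to 5.87) and 4.48 points from P0.5 epithelium only (3.74 to 5.23). Members inside introns were also nearer to coding sequence than introns of both single-list groups: their summits lay at a median of 1572 bp from a coding exon, against 3568 bp and 3726 bp, and 32.6% lay within 500 bp of one, against 16.3% and 21.8%. Shared regions were close to the members in this, at 2082 bp and 29.1%.

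The coding-exon members were spread over 2280 protein-coding genes, of which 484 had 2 or more. The genes with most, named after their values were seen, encode long proteins. Dnah1, an axonemal dynein heavy chain, and Sptbn5, a beta spectrin, had 8 each, over coding lengths of 12753 and 10872 bp. Sspo, the subcommissural organ protein spondin, had 7, and Dync1h1, the heavy chain of cytoplasmic dynein, had 6. Agrn (agrin, a basement membrane proteoglycan), Carmil3 (a regulator of actin capping), Ccdc88c, Cdc42bpg (a Cdc42-binding kinase), Crocc (rootletin of the ciliary rootlet) and Eppk1 (the cytolinker epiplakin) had 5 each.

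Most P0.5 fiber-only regions lay over genes and few at promoters. Of the 23423, 14093 (60.2%) overlapped a gene body, 5016 (21.4%) lay outside genes within 50 kb of a gene body, 2233 (9.53%) lay farther away and 2081 (8.88%) were within 2 kb of a start site. The shared P0.5 fiber regions had 45.7% at promoters, a difference of −36.9 points (−37.5 to −36.2). Against E14.5 fiber only, the gene body share was lower by 5.21 points, written as a signed difference −5.21 (−5.96 to −4.47), and against P0.5 epithelium only it was higher by 5.24 points (4.02 to 6.47), each with the same sign on 20 of 20 chromosomes. The promoter share was 0.75 points below E14.5 fiber only (difference −0.75, −1.19 to −0.30), but the direction turned with promoters of 5 kb, though not of 1 kb, and for stronger peaks, so no direction is given for it. It was 1.71 points above P0.5 epithelium only (1.04 to 2.35), which turned to −0.15 with promoters of 1 kb.

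Summits within 2 kb of a transcript's 3′ end, and not within 2 kb of a start, made up 9.26% of members, against 6.69% in E14.5 fiber only, 6.30% in P0.5 epithelium only and 6.70% in shared regions. The differences were 2.57 (2.15 to 3.003), 2.96 (2.31 to 3.58) and 2.56 points (2.097 to 3.02), with the same sign on 19, 19 and 20 of 20 chromosomes. The difference from shared regions came to 0.10 points when these were weighted to the members' −log10 q.

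Genes under the members were mostly genes with an open promoter in the same tissue. Of the members over protein-coding gene bodies, 87.6% lay over a gene with a P0.5 fiber promoter peak, while such genes make up 78.8% of the gene body length. A member at a promoter, present at 1588 genes, also counted as such a peak. These values thus rest in part on the members themselves, and the share without them was not computed. The share was 92.9% in E14.5 fiber only (difference −5.35 points, −5.97 to −4.74) and 85.5% in P0.5 epithelium only (2.098 points, 0.95 to 3.29). In shared regions it was 92.1% (−4.52 points, −5.26 to −3.78). Chromosome X held 79 members (0.337%), against 1.09% of E14.5 fiber-only, 0.770% of P0.5 epithelium-only and 1.26% of shared regions. The difference was −0.755 points from E14.5 fiber only and −0.433 points from P0.5 epithelium only, and this comparison was chosen after its values were seen.

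P0.5 fiber-only windows were GC-rich, with few CpG beside the shared regions. The median GC content of the 200 bp windows was 54.5%, against 51% in E14.5 fiber only, 53% in P0.5 epithelium only and 59.5% in shared regions. A GC content of at least 50% was found in 83.6%, against 57.7% (difference 25.9 points, 25.2 to 26.5), 71.2% (12.4 points, 11.3 to 13.5) and 94.1% (−10.5 points, −11.0 to −9.93), with the same sign on 20 of 20 chromosomes each time. A window held 3.39 CpG on average, against 3.003, 3.34 and 10.6 in the same order, so members held fewer CpG than shared regions and not fewer than the single-list groups. Within members, the median GC content was 58.5% at coding-exon summits and 54% at intron summits.

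Repeats, taken as bases soft-masked in the reference, covered at least 50% of the window in 5.51% of members, against 4.04%, 2.94% and 0.748%. Simple repeats were not left out of this class. The difference was 1.47 points from E14.5 fiber only (1.14 to 1.81) and 2.57 points from P0.5 epithelium only (2.09 to 3.02), the first of which came to −0.06 among peaks with q under 0.001. Simple repeats, defined as at least 6 units of CA, GA or TA or 12 of a single base, were found in 1.37% of members and in 2.79% of E14.5 fiber-only regions (difference −1.42 points, −1.62 to −1.21).

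Consensus motifs were searched on both strands of the same windows, 26 in all, as exact letters. A match describes letters and is not evidence of a bound factor. P0.5 fiber-only windows held 9 of the 26 motifs more often and 12 less often than E14.5 fiber-only windows, by intervals that leave out 0, and 4 more often and 13 less often than P0.5 epithelium-only windows.

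Motifs of known fiber regulators were among those less frequent in the P0.5 fiber-only windows. TGCTGA, the core recognised by the Maf factors that drive crystallin genes, stood in 20.01% of members and 27.0% of E14.5 fiber-only windows, a difference of −6.97 points (−7.60 to −6.33), or −6.26 with GC content weighted. Its size depended on peak strength: the difference was −2.22 points with −log10 q weighted and −17.3 points with equal numbers of the strongest peaks. Against P0.5 epithelium only, at 20.2%, the difference was −0.17 points (−1.17 to 0.81). ACAAAG, a core of HMG box factors such as Sox proteins, stood in 11.6%, against 17.9% (−6.25, −6.76 to −5.72) and 15.4% (−3.75, −4.62 to −2.89), or −3.63 and −2.19 with GC content weighted. TGGAAA, the core of Nfat factors, stood in 12.2%, against 16.4% (−4.18, −4.69 to −3.65) and 14.51% (−2.26, −3.13 to −1.41), or −2.32 and −1.25 with GC content weighted. Its difference from P0.5 epithelium only left out 0 in 8 of 9 alternatives, with values from −4.56 to −0.24. GGAATG, the site of the Tead effectors of Hippo signaling, stood in 11.1% and differed from P0.5 epithelium only, at 16.6%, by −5.52 points (−6.42 to −4.65), but not beyond counting error from E14.5 fiber only, at 11.4% (−0.33, −0.81 to 0.16). That last difference left out 0 with equal numbers of the strongest peaks (−0.78, −1.44 to −0.14), with 100 bp windows (−0.49, −0.84 to −0.13) and over whole regions (−5.40).

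Other motifs were also less frequent against both single-list groups, though more frequent than in shared P0.5 fiber regions before GC weighting. The differences from shared regions were 1.61 points for Gata, 0.74 for Pitx, 1.12 for AP-1 and 0.68 for heat shock factors. With GC content weighted they were −0.46, −0.85, −0.71 and −0.12, the last with an interval that included 0. AGATAA of Gata factors had differences of −2.65 and −1.85 points, GGATTA of Pitx and Otx homeodomains −2.36 and −1.80, TGANTCA of Fos and Jun (AP-1) −1.82 and −1.16, and GAANNTTC of heat shock factors −1.09 and −0.95, in the order E14.5 fiber only and P0.5 epithelium only. Their intervals still left out 0 with GC content weighted, but the differences shrank, in the same order, to −0.62 and −0.80 for Gata, −1.07 and −0.76 for Pitx and Otx, −1.05 and −0.77 for AP-1, and −0.42 and −0.53 for heat shock factors. With −log10 q weighted, the differences from P0.5 epithelium only included 0 for heat shock factors (−0.61, −1.28 to 0.06) and AP-1 (−0.66, −1.49 to 0.17). Each of these 2 differences left out 0 in 7 of 9 alternatives. Their values ran from −1.91 to −0.31 for heat shock factors and from −2.08 to −0.13 for AP-1.

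The nuclear receptor core (RXR) and the YY1 site were more frequent in members in the 200 bp windows, though not under every alternative. AGGTCA stood in 16.5% of members, against 14.9% of E14.5 fiber-only windows (1.64 points, 1.08 to 2.21) and 14.6% of P0.5 epithelium-only windows (1.959, 1.06 to 2.83). AAGATGGC, bound by YY1, stood in 1.54%, against 1.02% (0.51, 0.34 to 0.70) and 1.13% (0.40, 0.12 to 0.67). With GC content weighted, the RXR differences were 1.34 and 1.54 points and the YY1 differences 0.50 and 0.31 points. With −log10 q weighted, the differences from P0.5 epithelium only included 0, at 1.16 points for RXR (−0.12 to 2.45) and 0.26 for YY1 (−0.14 to 0.67). The YY1 difference from P0.5 epithelium only left out 0 in 7 of 9 alternatives, with values from 0.17 to 0.61. Over whole regions, which are wider in E14.5 fiber only, the differences from that group turned to −4.82 and −0.13 points.

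**Figure D4:**
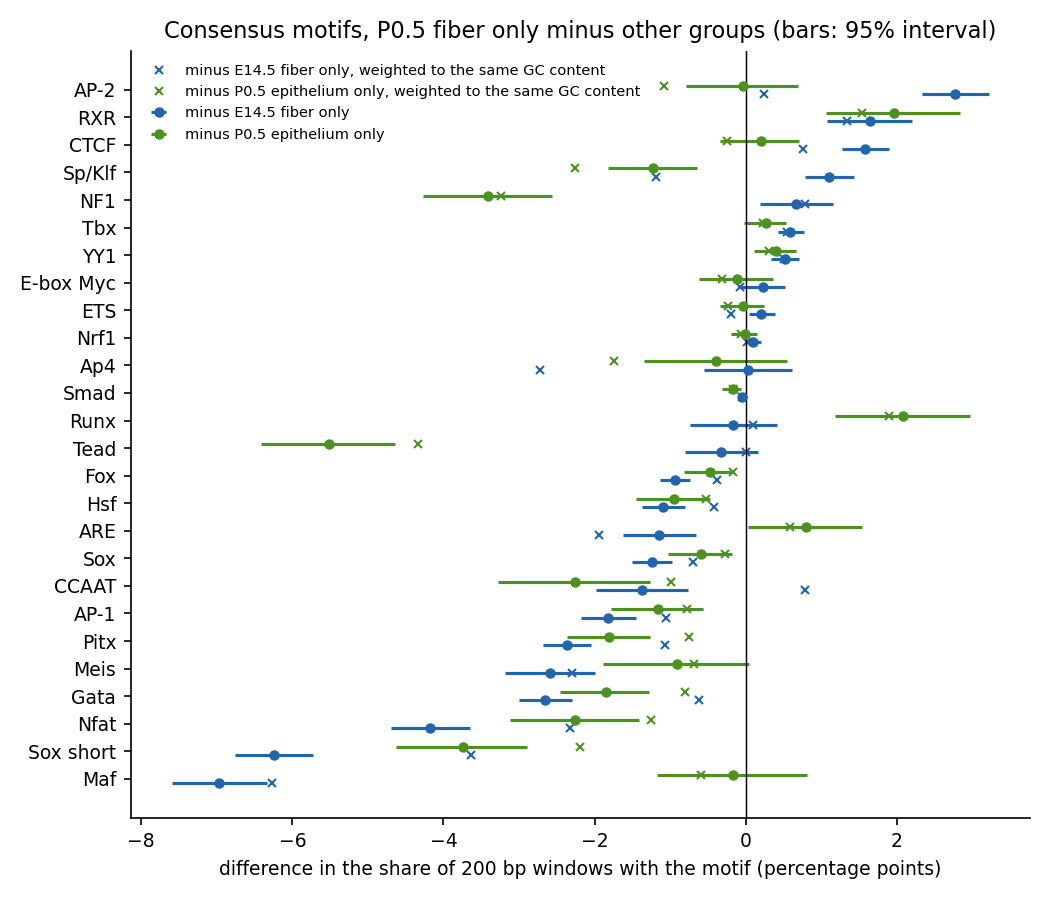
Difference between P0.5 fiber-only regions and each of E14.5 fiber only (blue) and P0.5 epithelium only (green) in the share of 200 bp windows with a consensus motif (horizontal axis, percentage points), for 26 motifs (vertical axis); bars are 95% Newcombe intervals and crosses are differences after weighting to the same GC content. The Maf and short Sox motifs lie farthest below 0 against E14.5 fiber only, at −6.97 and −6.25 points.

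The 13 strongest members, those with a −log10 q of at least 9.52, comprised 3 at coding exons, 2 at promoters, 8 over gene bodies and 3 distal, where the exon count overlaps the others. The strongest, with a −log10 q of 15.3, lay at −1.98 kb from the start of Hrh2, the histamine H2 receptor. The second, at 14.1, lay 26.9 kb from the long noncoding gene 1700124M09Rik. Others lay in introns of Sart3 (a splicing factor), Dnah8 (an axonemal dynein), Ctnna2 (the neuronal alpha catenin) and Nkx2-2os, over H2-T3, 15.7 kb from H2-Q1 and 27.8 kb from Gm40035, besides those in exons of Cntnap1, Hhatl and Rbp3. Runs of 20 bases of these regions were counted over the whole reference, a check added after their values were seen. All runs of the regions at H2-T3 and H2-Q1, genes of a multigene family with similar copies, stood elsewhere too, so the placing of reads there is uncertain. At Hrh2 16.4% of the runs stood elsewhere, and copies that the reference may lack were not compared, so its placing is uncertain too. The same holds for Gm40035, at 30.9%, and Nkx2-2os, at 26.9% with up to 79 occurrences of a run elsewhere. No run of the region near 1700124M09Rik stood elsewhere, where repeats inside the region itself were not counted. The 5 widest members, 797 to 1010 bp, lay over Jag2 (a Notch ligand), Rtf2 (a replication factor), Rps6kb2 (an S6 kinase) and Plvap (a protein of endothelial fenestrae), and 2.31 kb from Sap130 (a subunit of the Sin3 corepressor).

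By gene, 1588 of 20923 protein-coding genes (7.59%) had a member within 2 kb of a start site, 6685 (32%) had one over the gene body and 13913 (66.5%) had one within 50 kb. The lists below are read against these shares and against gene length, since a long gene holds more of any kind of region. Over all protein-coding gene bodies there were 1.56 members and 3.91 E14.5 fiber-only regions per 100 kb, or 2.51 E14.5 fiber-only regions for each member.

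**Figure D5:**
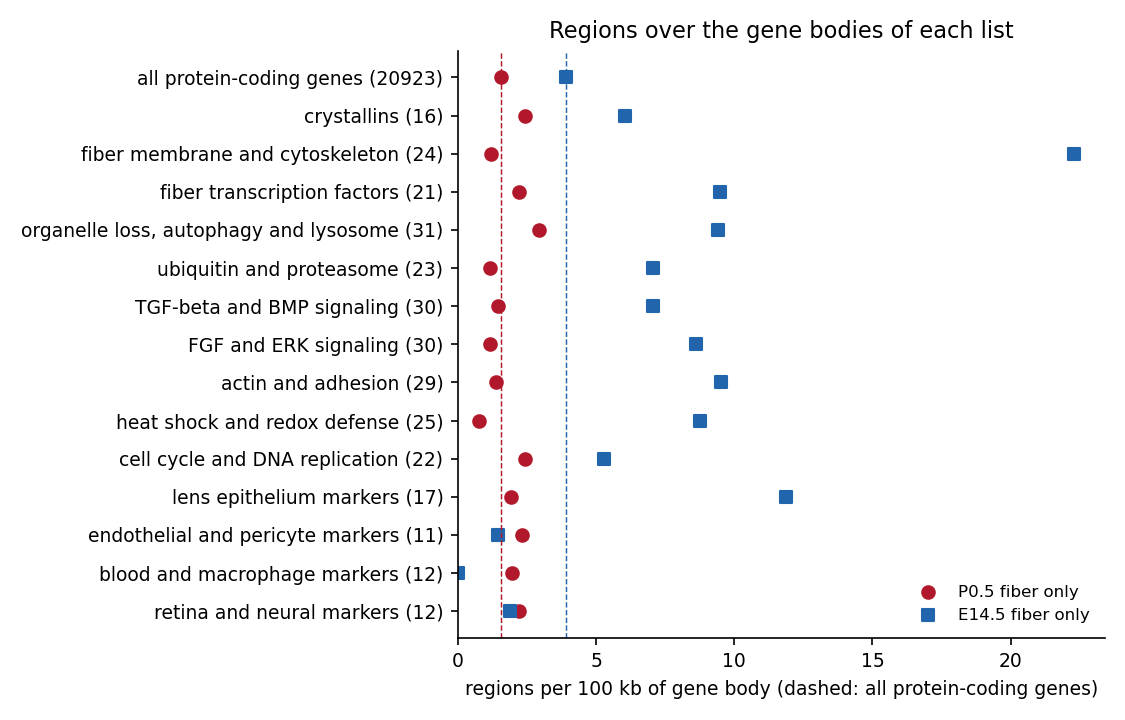
Regions per 100 kb of gene body (horizontal axis) for all protein-coding genes and 14 gene lists (number of genes in brackets), for P0.5 fiber-only regions (red circles) and E14.5 fiber-only regions (blue squares); dashed lines are the values over all protein-coding genes. P0.5 fiber-only values stay between 0.746 and 2.95, while the E14.5 fiber-only value of the fiber membrane and cytoskeleton list reaches 22.3.

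Structural genes of the fiber were read against the shares of all genes. Of 16 crystallin genes, 1 (6.25%) had a member over its body and the same gene, Crybb2, was the only one with members at its promoter. Crybb2, a beta crystallin at chr5:113058258-113070117, had 2 members over its body, 1 of them at a coding exon, with the highest −log10 q at 2.76, beside 1 E14.5 fiber-only region. With these 2 members, crystallin bodies held 2.42 per 100 kb, above the 1.56 of all genes. Of 24 genes of the fiber membrane and cytoskeleton, 10 (41.7%, beside 32% of all genes) had a member over the body and 0 had one at the promoter. Their bodies held 31 members (1.19 per 100 kb, below the 1.56 of all genes) and 579 E14.5 fiber-only regions (22.3 per 100 kb), or 18.7 for each member against 2.51 over all genes. Fyn, a Src family kinase, had 8 members and 29 E14.5 fiber-only regions, Tmod1, the tropomodulin that caps actin filaments of the membrane skeleton, had 6 and 22, and Epb41l1, a protein 4.1 of that skeleton, had 6 and 5.

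Among 21 fiber transcription factors, 8 (38.1%) had a member over the body and 1 at the promoter. Rxra, the retinoid X receptor alpha, had 10 members over its 86.1 kb body, the highest −log10 q being 6.40, beside 21 E14.5 fiber-only regions and 0 of either epithelium-only kind. Its promoter member had a −log10 q of 1.997. Foxo3, a forkhead factor of stress and survival signaling, had 6 members and 18 E14.5 fiber-only regions, and E2f1, a cell cycle regulator, had 2 and 1.

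The list of organelle loss, autophagy and lysosome had the highest density of the 14 lists, 2.95 members per 100 kb, with 14 of 31 genes (45.2%) holding a member over the body and 3 (9.68%) at the promoter. Its bodies held 31 members and 99 E14.5 fiber-only regions, the latter at 9.41 per 100 kb against 3.91 over all genes. That is 3.19 E14.5 fiber-only regions for each member, against 2.51 over all genes. Tfeb, the master regulator of lysosomal genes, had 9 members over 55.4 kb, 2 of them at coding exons, and 7 E14.5 fiber-only regions. Its promoter member lay 0.57 kb downstream of a start site, with its summit in a coding exon and a −log10 q of 2.76. Ctsb, the lysosomal protease cathepsin B, had 4 members and 0 E14.5 fiber-only regions, and Atg7, an enzyme of autophagosome formation, had 4 and 28. Lamp1, a lysosomal membrane protein, and Lmna, which encodes the nuclear lamins A and C, had a promoter member with a −log10 q of 2.76 each. In the ubiquitin and proteasome list, 5 of 23 genes (21.7%) had a member over the body and 0 at the promoter. Nedd4l, a ubiquitin ligase, had 10, Ube2o, an E2/E3 hybrid enzyme, 3, and Usp7, a deubiquitinase, 2.

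Signaling genes were read against the 7.59% of all genes with a promoter member and the 32% with one over the body. In the list of TGF-beta and BMP signaling, 15 of 30 genes (50%) had a body member, beside a median length of 69.5 kb against 16.8 kb for all genes, and 0 had a promoter member. At 1.43 per 100 kb the list was close to the 1.56 of all genes. Smad6, an inhibitory Smad, had 5 members, Bmp7, a BMP ligand, 4, and Acvr2b, an activin receptor, 3. In the list of FGF and ERK signaling, 11 of 30 genes (36.7%) had a body member and 3 (10%) a promoter member, namely the ETS factor Etv4, the ligand Fgf1 and the Klotho-related Lctl, at −log10 q of 1.997, 1.997 and 1.33. Spred2, an inhibitor of ERK signaling, had 5 body members, the kinase Map2k2 had 4 and the ETS factor Etv5 had 2.

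In the actin and adhesion list, 12 of 29 genes (41.4%) had a body member and 2 a promoter member. The promoter member of Ptk2, the focal adhesion kinase, was the strongest at a listed gene, with a −log10 q of 5.42. Only its near edge, 1.99 kb from the gene, lay within 2 kb, and its summit was at −2.03 kb. The promoter member of Actb, beta actin, had a −log10 q of 1.997. Cttn (cortactin) and Myh9 (nonmuscle myosin IIA) had 5 body members each and Actn4 (alpha actinin) had 4. Heat shock and redox defense had the lowest density, 0.746 per 100 kb, with 4 of 25 genes holding a single body member each. Hsf1, the heat shock transcription factor, had both a body member and a promoter member, and Keap1 and Nfe2l1, of the antioxidant response, had a body member. In the list of cell cycle and DNA replication, 9 of 22 genes (40.9%) had a body member, with Mcm2, Ccnd1 and E2f2 at 2 each, and Mcm2, of the replicative helicase, and Ccne1, cyclin E1, had one at the promoter.

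Among 17 lens epithelium markers, 5 (29.4%) had a body member and 0 a promoter member. Notch1 had 8 and Notch2 had 5, of which 4 lay at coding exons, and Pdgfra, a growth factor receptor, had 2. The bodies of these genes held 17 members, 105 E14.5 fiber-only regions and 61 E14.5 epithelium-only regions.

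Markers of other cell types were also under members. Of 11 endothelial and pericyte markers, 7 (63.6%) had a body member and 1 (9.09%) a promoter member, with 21 members in all against 13 E14.5 fiber-only, 8 P0.5 epithelium-only and 23 E14.5 epithelium-only regions, at 2.33 members per 100 kb. The Ets factor Erg had 7, the pericyte proteoglycan Cspg4 had 6 and a promoter member, and the receptor Pdgfrb had 4, while Kdr, Tek and Emcn, named after their values were seen, had 0. Of 12 retinal and neural markers, 5 (41.7%) had a body member and 3 (25%) a promoter member, including Pou4f2 and Nrl, transcription factors of retinal neurons, at −log10 q of 2.76 and 1.997. Tubb3, a neuronal tubulin, had 2 body members. Of 12 blood and macrophage markers, 2 (16.7%) had a body member, Spi1 with 4 and Csf1r with 1, and 1 (8.33%) had a promoter member, Spi1, at a −log10 q of up to 3.59. Ptprc, Lyz2 and the globin genes Hbb-bt and Hba-a1, also named after their values were seen, had 0. The part of other cell types in the P0.5 fiber list was not tested.

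The genes with most members over the body were long. Dnah8 had 43, Btbd9 33, Sorcs2 32, Cdh23 27, Agap1 25, Tns1 and Shank2 22 each, and Dlgap4, Prdm16 and Dscaml1 21 each, with lengths from 151 to 440.5 kb. Sorcs2 encodes a neurotrophin receptor partner, Cdh23 a cadherin of sensory hair bundles, Tns1 a tensin of focal adhesions, Shank2 and Dlgap4 scaffold proteins of the synapse and Prdm16 a transcription factor. Among genes of at least 10 kb, members were densest over Skiv2l (82.0 per 100 kb, 9 members), Slc4a3 (76.0, 10 members), Cabp7 (58.3), Cdc42bpg (46.9), Abca2 (45.1), Zfr2 (42.2), Ddx39b (41.8), Wdr90 (41.7), Col1a1 (41.6) and Thop1 (40.7). Skiv2l, an RNA helicase of the cytoplasmic exosome, had 4 of its 9 at coding exons and no region of the other single-list kinds. Slc4a3, an anion exchanger, had 5 of its 10 at coding exons, and Col1a1, the alpha 1 chain of type I collagen, had 4 of 7.

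Dnah8 and one end of Btbd9 lie in a single segment of chromosome 17. The 500 kb from 30.5 to 31.0 Mb held 82 members, the most of 3754 windows with a member, where the median window held 3 and the next held 64. This window had 145 P0.5 fiber and 142 P0.5 epithelium peaks but 11 E14.5 epithelium and 15 E14.5 fiber peaks, whereas the windows before and after it had 41 and 20 P0.5 fiber, 36 and 21 P0.5 epithelium, 37 and 40 E14.5 epithelium and 97 and 48 E14.5 fiber peaks. Over Dnah8, an axonemal dynein gene with no promoter peak in P0.5 fibers, there were 43 P0.5 fiber-only, 44 P0.5 epithelium-only and 28 shared regions and 0 of either E14.5-only kind. The excess was thus found in both P0.5 tissues, and the number of copies of this segment in the animals was not measured. Leaving the window out changed the direction or call of 0 of the shares compared above. In the other windows with most members, such as 81.0 to 81.5 Mb of chromosome 10 with 64, peaks were frequent in all lists, with 247 P0.5 fiber, 106 P0.5 epithelium, 243 E14.5 epithelium and 199 E14.5 fiber peaks.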

How the data were processed

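Per the labels and the study's methods, the authors trimmed reads (Trim Galore 0.4.1), mapped them to mm10 (Bowtie2 2.3.3.1), removed mitochondrial and duplicate reads (SAMtools 1.2, Picard 2.1.1) and called peaks with MACS2 2.1. The deposited narrowPeak lists, 1 for each of the 4 groups, are named as pooled and give for each peak its position, summit, fold enrichment (a ratio over background) and −log10 q. How the 2 libraries of a group were joined is not given in the sources used here. No read counts or depths were used.

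The lists were merged with bedtools 2.31.1 (distance 10 bp). Genes were curated transcripts of RefSeq on GRCm38.p6, 45754 of 119251. Windows of 200 bp around summits gave GC content, soft-masked bases and 26 motifs. Shares were compared by 95% Newcombe intervals, with regions taken as independent, against 3 groups of regions, and no p-value was computed. Weighted differences standardised the comparison group to the members' bins of −log10 q, width or GC. Grouping, intervals and weighting were tested on simulated data.

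The members, the 14 gene lists and the motifs were chosen with earlier results of these data known. Named genes were those at the 10 members of highest −log10 q with ties, at the 5 widest, the 10 with most members over the body, the 10 of at least 10 kb with most per 100 kb, and per list up to 5 with a promoter member and 3 with most body members; other genes are said to be chosen later. The motifs named singly and the coding genes with most members were picked after their values were seen. Some genes that this rule names are not reported here.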

Additional observations from a re-analysis of the deposited data

Results flagged for a closer look

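The region rule covered chromosomes 1 to 19 and X. Outside them, regions with a peak in the P0.5 fiber list only were also present, above the 3 that a count of 0 allows, with 5 of 24 merged regions on chromosome Y and 6 of 97 on unplaced scaffolds. With 1 list, named as pooled, for the 2 libraries of a group, no sample could be compared with others of its group for outlying values.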

How the results depend on the processing

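Of 258 recomputed shares and counts, 218 gave the same call: a difference kept its side of the threshold, and its direction where its interval left out 0, and a count stayed within 1.5 times. Among these, differences from shared regions whose intervals included 0 changed sign, for coding exons to −0.408 with predicted transcripts and −0.105 with −log10 q weighted, and for simple repeats to −0.017 at q under 0.001 and −1.03 with width weighted. The coding-exon difference kept both in all 8 alternatives against E14.5 fiber only (5.35 to 13.9 points) and against P0.5 epithelium only (4.48 to 11.5 points), as did the GC-rich difference (18.7 to 34.1 and 8.22 to 21.9 points) and the gene body difference (−10.7 to −1.96 and 2.90 to 8.93 points). Of 180 recomputed differences of single motifs, counted apart, 166 gave the same call, and the changes are given with the motifs above or below. Other values changed as follows, and where nothing else is said the cause was not tested.

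The promoter difference from E14.5 fiber only turned from −0.75 to 1.005 points at q under 0.001, 1.42 with equal numbers of the strongest peaks, 1.18 with no other peak within 1 kb, 1.76 with promoters of 5 kb and 0.018 with predicted transcripts, and became −0.30 with width weighted. From P0.5 epithelium only it became −0.15 with promoters of 1 kb. The coding-exon difference from shared regions, 0.35, became 5.34 at q under 0.001, 3.47 with equal numbers, 3.88 with width weighted and 5.31 with GC weighted, and the exon difference, −10.0, became 0.56 with width weighted and 2.81 with GC weighted. Against shared regions, width weighting also gave −1.19 for GC-rich, −1.77 for repeat and 0.34 for open-promoter shares, and −log10 q weighting gave 0.10 for transcript ends. The repeat difference from E14.5 fiber only was −0.059 at q under 0.001. The simple repeat difference from P0.5 epithelium only, −0.36, no longer left out 0 at −0.32 (no other peak within 1 kb), −0.30 (−log10 q weighted) and −0.31 (width weighted).

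The 23423 members became 5474 at q under 0.001 and 14801 with no other peak within 1 kb, since both keep fewer regions. Genes with a member at q under 0.001 were 466 at the promoter, 2724 over the body and 7727 within 50 kb. Of 26 motifs, those above and below E14.5 fiber only, 9 and 12, became 0 and 21 over whole regions, which are wider there. Against P0.5 epithelium only, 4 and 13 became 10 and 6 over whole regions and 1 and 8 with −log10 q weighted, and 2 were above with 100 bp windows. Against shared regions, 13 and 8 became 0 and 26 over whole regions, 4 and 1 with width weighted and 3 and 19 with GC weighted, and 6 were above with −log10 q weighted. Over whole regions RXR and YY1 turned to −4.82 and −0.13 points against E14.5 fiber only, and Maf to 1.70 against P0.5 epithelium only. GC weighting of locations and the removal of the chromosome 17 window of most members were chosen after seeing the data.

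No paired analysis was possible because each group has 1 deposited list, named as pooled, and for the same reason leaving out a replicate could not be run. No reads or read counts were used, so absence from a list was not checked against reads.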
